A study of Mus musculus with 4 samples.

Results

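Signals of 9 genes that make, carry and sense retinoic acid were compared across 4 treatments of mouse synovial fibroblasts: Rdh10, Crabp1, Crabp2, Aldh1a1, Aldh1a2, Rara, Rarb, Rarg and Rxra. The genes were taken as every probe set whose annotated symbol is exactly one of these names, which gave 11 of 22690 probe sets and 9 of 12393 named genes. The fibroblasts were grown from the knees of naive male DBA/1J mice, 8 to 12 weeks old, were passaged 3 to 4 times and were kept in 1% serum. One dish, here called the iloprost dish, received IL-1β at 5 ng/ml with 1 µM indomethacin and 1 µM iloprost. The indomethacin dish received IL-1β with 1 µM indomethacin, the IL-1β dish received IL-1β alone, and the control dish received vehicle, all for 6 h. Indomethacin is a cyclooxygenase inhibitor, which stops cells from making prostanoids, and iloprost mimics prostacyclin in a more stable form. Each treatment has 1 array, so no value has a replicate error, no comparison has a test, and all differences describe these 4 dishes. The labels do not say whether cells of several mice were pooled.

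Retinoic acid is made from vitamin A in sequential oxidations. Retinol dehydrogenases such as RDH10 turn retinol into retinaldehyde, and the aldehyde dehydrogenases ALDH1A1 and ALDH1A2 turn retinaldehyde into retinoic acid. CRABP1 and CRABP2 bind retinoic acid in the cell, and CRABP2 hands it to the nuclear receptors. The receptors RARα, RARβ and RARγ bind DNA as pairs with a retinoid X receptor such as RXRα and switch on target genes when retinoic acid is bound. In cultured rabbit synovial fibroblasts, retinoids are known to lower the production of collagenase.

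Only part of this pathway was above background. Background was taken as a floor at a signal of 37.6, the median of all values on the 4 arrays, because the deposited table holds no detection calls. Of the 9 genes, 4 were at or above the floor on every array (Rdh10, Aldh1a2, Rarg and Rxra), 2 on some arrays (Crabp2 and Aldh1a1) and 3 on none (Crabp1, Rara and Rarb). By dish, 5 genes were at or above the floor with iloprost, 4 with indomethacin, 6 with IL-1β and 4 with vehicle. The floor was applied to deposited signals, and the IL-1β array was the brightest of the 4. Crabp2 and Aldh1a1 passed the floor with IL-1β, but not with indomethacin or vehicle, at 1.07 and 1.09 times its level. The count for IL-1β therefore depends on the brightness of that array. The clearest differences were those of Rdh10 and Crabp2. Both were brightest in the iloprost dish, and Rdh10 was also bright with IL-1β alone but not with indomethacin or vehicle.

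**Figure D1:**
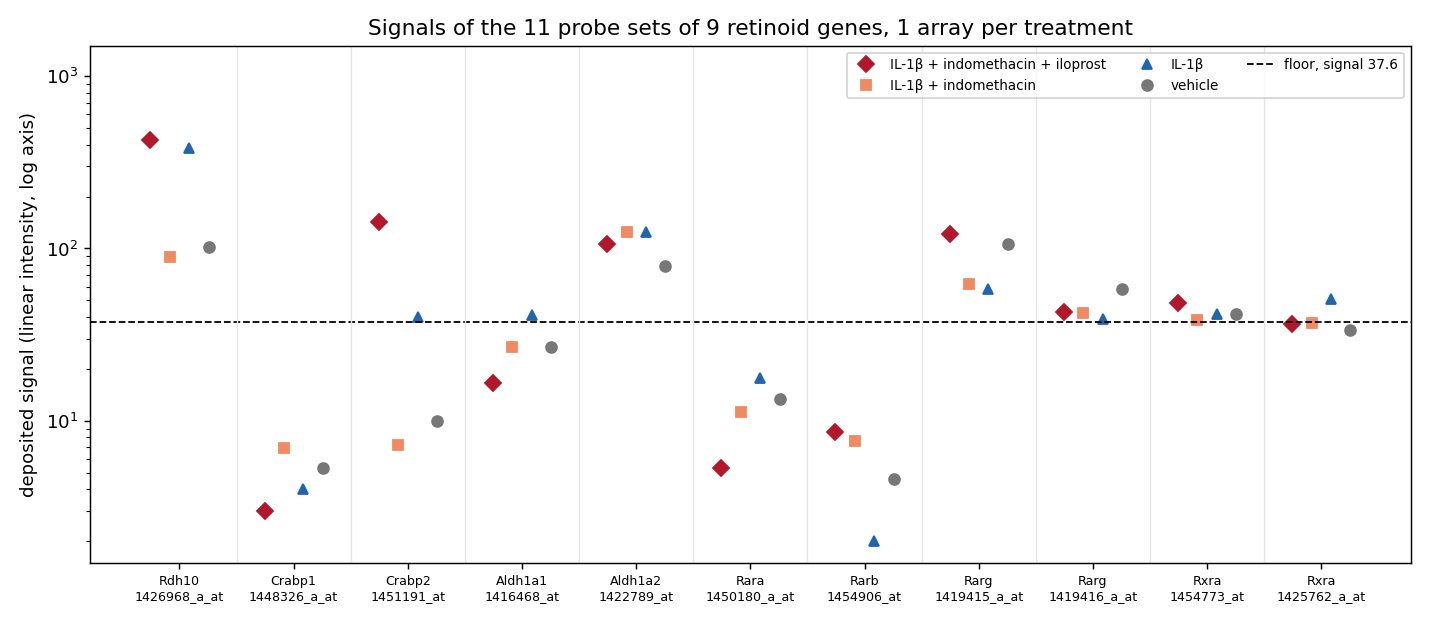
Deposited signals (vertical log axis, linear intensity) of the 11 probe sets of the 9 retinoid genes, with 1 point per array in each of the 4 treatments and a dashed line at the floor of 37.6. Rdh10 is high in the iloprost and IL-1β dishes, Crabp2 stands clear of the floor with iloprost only, and Crabp1, Rara and Rarb lie below the floor throughout.

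The arrays as a whole differed in brightness. Of all probe sets, 48.9% to 51.2% were at or above the floor. The floor is the median of all values, which fixes the average of these shares. They therefore cannot show whether the arrays were alike in content. The median gene was brighter than with vehicle by 0.09 (iloprost), 0.08 (indomethacin) and 0.23 (IL-1β) on the log2 scale, so each ratio below has the shift of the median gene subtracted. The 29 probe sets for added control transcripts differed from vehicle by a median log2 of -0.13, -0.01 and 0.29 in the same dishes. All 16 fibroblast markers were at or above the floor in every dish, and so were 18 of 20 macrophage markers. Their summed signals ranged from 35340 to 38691 for fibroblast markers. For macrophage markers the sums were 34389 in the iloprost dish, 37049 with indomethacin, 43438 with IL-1β and 37902 with vehicle. All these sums are of deposited signals, without the shift of the median gene subtracted. The sum with IL-1β, the brightest array, therefore cannot be read as a rise in macrophage markers. The macrophage exceptions, Cd163 and Mertk, were below the floor throughout. Endothelial markers (10) and lymphocyte markers (6) were all below the floor. At or above it in every dish were 1 of 5 adipocyte markers, with signals up to 164.3, and 2 of 7 chondrocyte markers, with signals up to 387, while Adipoq, Acan, Col2a1 and Sox9 were below it. Which of these cells carried a retinoid transcript was not tested, and fewer cells of a type and less RNA per cell cannot be told apart.

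Rdh10, the retinol dehydrogenase of the first step, had signals of 423.9 in the iloprost dish, 88.7 in the indomethacin dish, 383.7 in the IL-1β dish and 101.8 in the vehicle dish. The iloprost and IL-1β dishes thus lay close together and well above the other pair. Relative to the median gene, Rdh10 was 3.22-fold higher with IL-1β than with vehicle, a log2 ratio of 1.69, the 33rd highest of 6436 genes above the floor on both arrays. With indomethacin added it was 3.90-fold lower than with IL-1β alone (log2 ratio -1.97), the 5th lowest of 6503 genes. With iloprost added to indomethacin it was 4.75-fold higher (log2 ratio 2.25), the 8th highest of 6416 genes. The iloprost dish differed little from the IL-1β dish (log2 ratio 0.28), and the indomethacin dish little from vehicle (-0.28). Rdh10 has 1 probe set on the array, so no other probe set could be set beside it. As a scale for these values, probe sets of the same gene differed with an SD of 0.20 to 0.22 on the log2 scale, which does not include differences between dishes. These comparisons share arrays, so their values are not independent of one another.

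Crabp2, the carrier that delivers retinoic acid to its nuclear receptors, had signals of 143.1 with iloprost, 7.2 with indomethacin, 40.2 with IL-1β and 10 with vehicle. Only the iloprost dish stood clear of the floor, and the IL-1β signal was 1.07 times the floor. In the iloprost dish Crabp2 was at least 3.78-fold higher than in the indomethacin dish and at least 3.58-fold higher than in the vehicle dish, with the dimmer array taken at the floor. Against the IL-1β dish it was 3.92-fold higher, a log2 ratio of 1.97 and the 7th highest of 6586 genes above the floor on both arrays. This ratio is measured only because the IL-1β signal passed a floor applied to deposited signals. With the arrays scaled before the floor was set, that signal was below the floor, and the ratio was a lower bound, still past 2-fold. The size depends on where the floor is put. With the floor at the 65th percentile (a signal of 87) the log2 ratio of iloprost against indomethacin was 0.74, against IL-1β 0.89 and against vehicle 0.63, all under 2-fold. With the floor at the 35th percentile (13.7) Crabp2 was also higher with IL-1β than with vehicle, by a log2 of at least 1.33, and lower with indomethacin than with IL-1β, by at most -1.41. At the main floor neither of these comparisons has a direction. Crabp1, the other cellular carrier of retinoic acid, had signals of 3.0 with iloprost, 6.9 with indomethacin, 4.0 with IL-1β and 5.3 with vehicle. All 4 values were below the floor and have no order.

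The aldehyde dehydrogenases of the second step showed smaller differences. Aldh1a2 had signals of 105.5 with iloprost, 124.4 with indomethacin, 125.1 with IL-1β and 78.7 with vehicle. The 3 dishes with IL-1β were all brighter than the vehicle dish. Against vehicle, its log2 ratios were 0.33 with iloprost, 0.58 with indomethacin and 0.44 with IL-1β, none of them 2-fold. Between the 3 dishes with IL-1β its ratios were 0.14 or less in size except for iloprost against indomethacin, at -0.25. The ratio for indomethacin against IL-1β was 0.14, and as deposited it was -0.01. Aldh1a1 had signals of 16.6 with iloprost, 26.8 with indomethacin, 40.9 with IL-1β and 26.8 with vehicle. Only the IL-1β value passed the floor, at 1.09 times its level, so no ratio has a direction at the main floor. With the floor at the 35th percentile, Aldh1a1 was lower with iloprost than with IL-1β by a log2 ratio of -1.19.

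Of the receptors, Rarg alone passed 2-fold in a comparison. Its brighter probe set had signals of 122.0 with iloprost, 61.8 with indomethacin, 58.5 with IL-1β and 106.2 with vehicle. The iloprost and vehicle dishes were high and the other pair low, an arrangement unlike that of Rdh10. Relative to the median gene, Rarg was 2.13-fold lower with IL-1β than with vehicle (log2 ratio -1.09), the 20th lowest of 6436 genes. As deposited, without the shift in brightness, the same ratio was -0.86 and under 2-fold, and over 8 other settings it passed 2-fold in 4. With indomethacin the log2 ratio to vehicle was -0.86, and with iloprost it was 0.11. The iloprost dish was 2.30-fold above the IL-1β dish (log2 ratio 1.20) and 1.96-fold above the indomethacin dish (0.97).

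The dimmer probe set of Rarg gave other values for the iloprost dish. It had signals of 42.9 with iloprost, 42.1 with indomethacin, 38.9 with IL-1β and 58.2 with vehicle, so that vehicle was highest and the 3 other dishes lay between 1.03 and 1.14 times the floor. Its log2 ratio was -0.81 for IL-1β against vehicle, 0.02 for iloprost against indomethacin, 0.28 for iloprost against IL-1β and -0.53 for iloprost against vehicle. With the mean of both probe sets, Rarg was under 2-fold in each comparison, at 0.74 for iloprost against IL-1β and 0.50 for iloprost against indomethacin. The sign turned in the comparison of iloprost with vehicle, at -0.21. Both probe sets were thus lower with IL-1β than with vehicle and higher with iloprost than with IL-1β, and only the brighter one passed 2-fold, in either comparison. For the dimmer one the difference between iloprost and IL-1β was small, at 0.14 as deposited, with both signals near the floor. The 2 probe sets therefore do not give the same account of the iloprost dish.

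Rxra, the shared partner of the retinoic acid receptors, was near the floor on all arrays. Its brighter probe set had signals of 48.2 with iloprost, 38.5 with indomethacin, 41.5 with IL-1β and 41.8 with vehicle. Its log2 ratios ran from -0.24 for IL-1β against vehicle to 0.36 for iloprost against IL-1β. The other probe set had signals of 36.3, 36.9, 51.2 and 33.5 in the same order of dishes, and passed the floor with IL-1β only. The probe sets therefore placed the highest signal in different dishes. Rara had signals of 5.3 with iloprost, 11.2 with indomethacin, 17.7 with IL-1β and 13.4 with vehicle. Rarb, itself a well-known target gene of retinoic acid, had signals of 8.6 with iloprost, 7.6 with indomethacin, 2.0 with IL-1β and 4.6 with vehicle. Both receptor genes were below the floor in every dish, so no difference could be read from them.

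**Figure D2:**
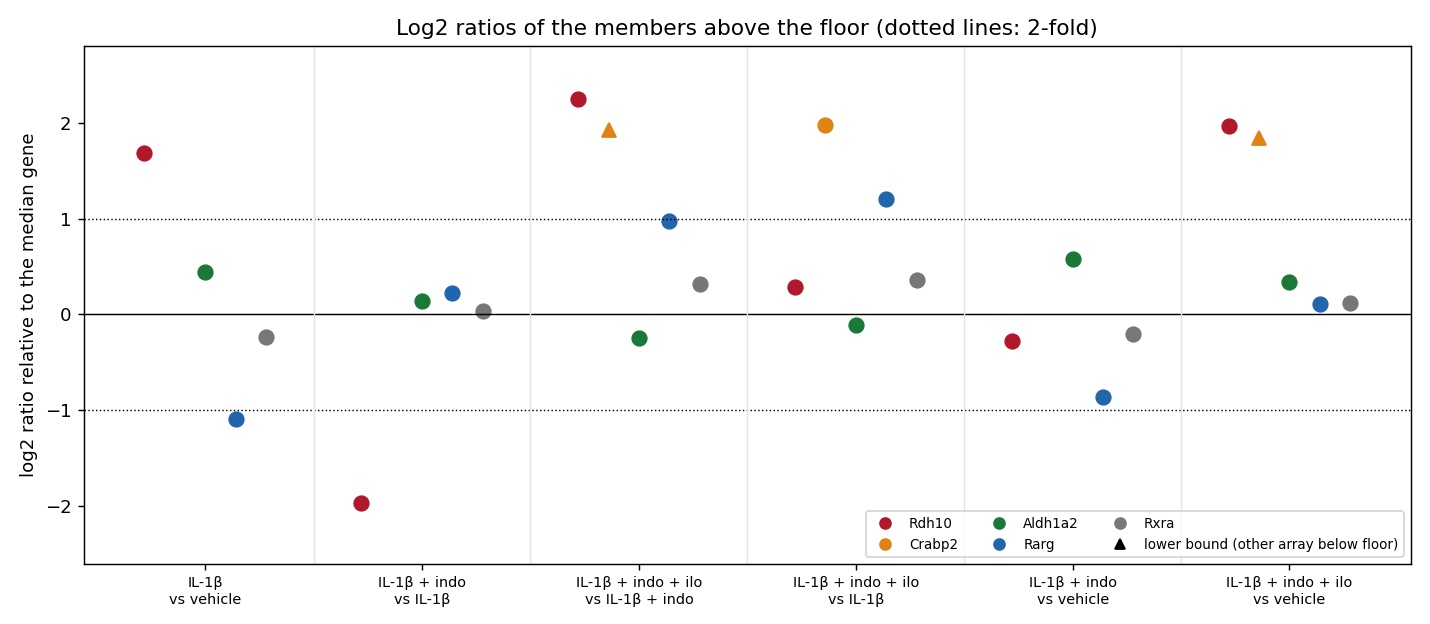
Log2 ratios relative to the median gene (vertical axis) of the retinoid genes that have a ratio, in each of the 6 comparisons of the 4 dishes; circles are measured ratios, triangles are lower bounds with the other array below the floor, and dotted lines mark 2-fold. Rdh10 is at 1.69, -1.97 and 2.25 in the first 3 comparisons, and Crabp2 is at or above 1.84 in the 3 comparisons of the iloprost dish.

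Members were counted at 2-fold among those with a ratio or bound, as were all genes. In the order of the comparisons below, 6, 6, 5, 6, 4 and 5 of the 9 members had one. With IL-1β against vehicle, 1 member was higher (Rdh10) and 1 lower (Rarg), where 1.72% of 6965 genes were higher and 0.56% lower. With indomethacin against IL-1β, 0 were higher and 1 lower (Rdh10), where 0.245% of 6937 genes were higher and 0.663% lower. With iloprost against indomethacin, 2 were higher (Rdh10 and Crabp2) and 0 lower, where 1.97% of 6990 genes were higher and 3.19% lower. With iloprost against IL-1β, 2 were higher (Crabp2 and Rarg) and 0 lower, where 0.965% of 7050 genes were higher and 2.37% lower. With indomethacin against vehicle, 0 passed in either direction, where 1.29% of 6806 genes were higher and 0.323% lower. With iloprost against vehicle, 2 were higher (Rdh10 and Crabp2) and 0 lower, where 2.72% of 6985 genes were higher and 3.35% lower. With so few members no share can be read closely, and the members were chosen with earlier results of these arrays known.

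The median log2 ratio of the members above the floor on both arrays followed no single direction. It was 0.10 with IL-1β against vehicle, 0.09 with indomethacin against IL-1β and 0.64 with iloprost against indomethacin, over Rdh10, Aldh1a2, Rarg and Rxra. It was 0.36 with iloprost against IL-1β, where Crabp2 is added, -0.24 with indomethacin against vehicle and 0.23 with iloprost against vehicle. Over all genes above the floor on both arrays the medians of these comparisons lay between -0.02 and 0.03.

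**Figure D3:**
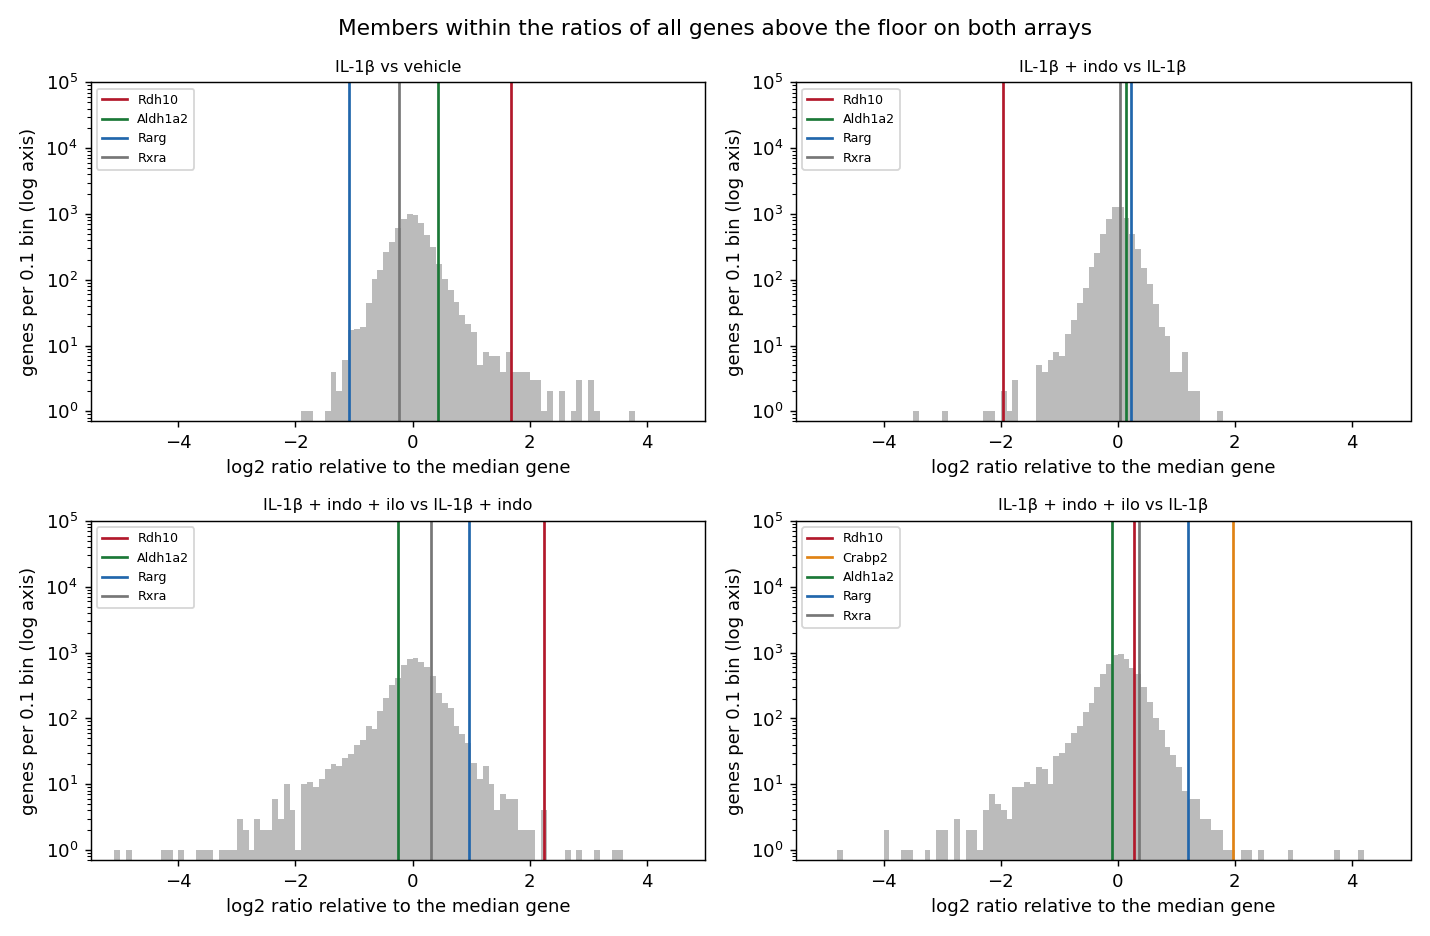
Number of genes (vertical log axis) by log2 ratio relative to the median gene, in bins of 0.1, for 4 comparisons, over genes above the floor on both arrays; coloured lines mark the retinoid genes measured there. Rdh10 lies in the tails of the first 3 panels, at 1.69, -1.97 and 2.25, and Crabp2 at 1.97 in the last.

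The split of all genes into higher and lower depends on the scale. As deposited, 195 genes were 2-fold higher and 11 lower with IL-1β against vehicle, where 120 and 39 were so relative to the median gene. With indomethacin against IL-1β the numbers as deposited were 9 and 60, where the median gene gave 17 and 46. With iloprost against IL-1β they were 44 and 220, where it gave 68 and 167. Relative to the added control transcripts, 187 were higher and 192 lower with iloprost against indomethacin, where the median gene gave 138 and 223, and 65 and 44 with indomethacin against vehicle, where it gave 88 and 22. Rdh10 kept its side and stayed past 2-fold under each of 8 other settings in the 4 comparisons where it passed.

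Other genes of retinoid biology were taken from 4 lists of 88 genes, of which 75 have a probe set and 45 were below the floor on every array. In the list of retinoid handling and metabolism, 9 of 33 genes with a probe set were at or above the floor on every array. At the main settings 0 of the 33 passed 2-fold in any comparison, where 4.77% of all 12393 genes did so. Dhrs3, a reductase that turns retinaldehyde back into retinol and so opposes RDH10, had signals of 123.7 with iloprost, 169.7 with indomethacin, 207.0 with IL-1β and 207.1 with vehicle. It was lowest in the iloprost dish, with a log2 ratio of -0.60 against IL-1β and -0.83 against vehicle, both under 2-fold. Dhrs3 was named after its values were seen, and it is also in the list of genes known to respond to retinoic acid. Aldh1a3, the third retinaldehyde dehydrogenase, had signals of 39.5 with iloprost, 56.4 with indomethacin, 77.6 with IL-1β and 20.0 with vehicle. Its log2 ratio was at least 0.82 with IL-1β against vehicle and -0.83 with iloprost against IL-1β. The brightest genes of the list were Cyp1b1, a cytochrome P450 that can oxidise retinol, with signals from 2054.3 to 2857.7, the fatty acid and retinoic acid binding protein gene Fabp5, from 1150.0 to 1484.8, and the alcohol dehydrogenase gene Adh5, from 513.1 to 606.7. Cyp26a1, which encodes an enzyme that breaks down retinoic acid and is induced by it, was below the floor in every dish, with signals from 1.5 to 10.4. Cyp26b1 and Cyp26c1, also in the list, have no probe set that names them alone and were not measured.

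Among the receptors that pair with RXR, 3 of 14 genes with a probe set passed 2-fold in a comparison, where 4.77% of all 12393 genes did so in any of the 6. With IL-1β against vehicle, indomethacin against IL-1β, iloprost against indomethacin and iloprost against vehicle, all 3 stood on the same side as Rdh10. Nr4a1, an orphan receptor known as Nur77, had signals of 548.6 with iloprost, 75.8 with indomethacin, 897.3 with IL-1β and 34.1 with vehicle. Nr4a2, a close relative known as Nurr1, had signals of 101.4 with iloprost, 22.4 with indomethacin, 158.5 with IL-1β and 17.2 with vehicle. Vdr, the vitamin D receptor, had signals of 135.8 with iloprost, 12.7 with indomethacin, 105.8 with IL-1β and 29.7 with vehicle. In all 3 genes the iloprost and IL-1β dishes were above the indomethacin and vehicle dishes, as for Rdh10. The genes differed elsewhere: Nr4a1 was higher with indomethacin than with vehicle by a log2 of at least 0.93, where Rdh10 was at -0.28, and Nr4a1 and Nr4a2 were brightest with IL-1β alone, where Rdh10 and Vdr were brightest with iloprost.

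With IL-1β against vehicle the log2 ratios were at least 4.35 for Nr4a1, 1.85 for Nr4a2 and 1.26 for Vdr. With indomethacin against IL-1β they were -3.42 for Nr4a1, and at most -1.93 for Nr4a2 and -1.34 for Vdr. With iloprost against indomethacin they were 2.85 for Nr4a1, and at least 1.42 for Nr4a2 and 1.84 for Vdr. The second probe sets of Nr4a2 and Vdr stood on the same sides, that of Vdr with bounds of 0.78, -0.86 and 0.92 that are under 2-fold. With the floor at the 65th percentile these bounds were 0.61, -0.72 and 0.25 for Nr4a2 and 0.03, -0.13 and 0.67 for Vdr, all under 2-fold. With iloprost against IL-1β the ratios were -0.57 for Nr4a1, -0.50 for Nr4a2 and 0.50 for Vdr. Rxrb, a second retinoid X receptor, had signals of 156.7 with iloprost, 109.6 with indomethacin, 89.6 with IL-1β and 129.9 with vehicle. Its log2 ratio was -0.76 with IL-1β against vehicle and 0.95 with iloprost against IL-1β, on the same sides as Rarg. Thra, a thyroid hormone receptor that pairs with RXR, was at signals from 88.9 to 110.2.

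**Figure D4:**
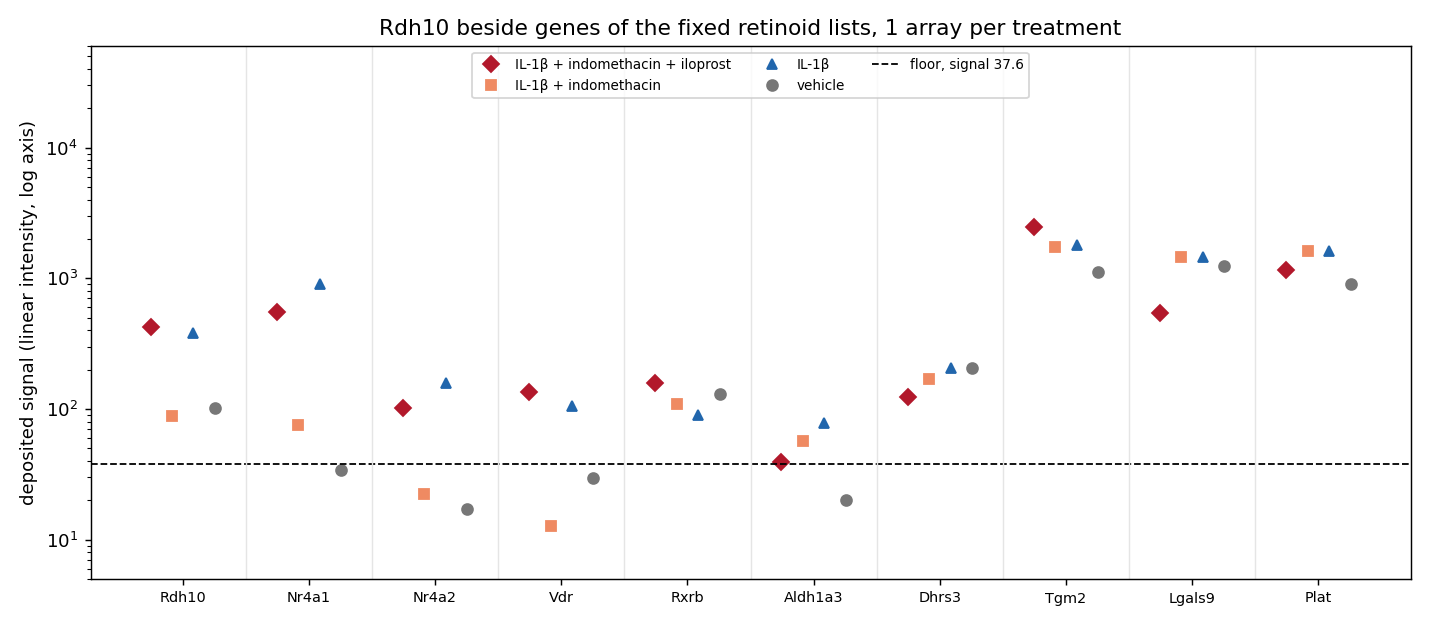
Deposited signals (vertical log axis, linear intensity) of Rdh10 and of 9 genes of the fixed retinoid lists, with 1 point per array in each of the 4 treatments and a dashed line at the floor of 37.6. Nr4a1, Nr4a2 and Vdr share with Rdh10 the high iloprost and IL-1β dishes, while Dhrs3 and Lgals9 are lowest with iloprost.

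Of the genes known to respond to retinoic acid, 6 of 23 with a probe set were above the floor on every array and 17 were below it on every array. Tgm2, which encodes tissue transglutaminase, had signals of 2446.9 with iloprost, 1728.5 with indomethacin, 1793.3 with IL-1β and 1119.6 with vehicle. It passed 2-fold with iloprost against vehicle only, at a log2 ratio of 1.04. Its 4 other probe sets above the floor were at 1.16 to 1.44 in that comparison, and with iloprost against indomethacin 2 of them passed 2-fold, at 1.02 and 1.29, where the brightest was at 0.49. Lgals9, which encodes galectin-9, had signals of 542.4 with iloprost, 1460.3 with indomethacin, 1459.4 with IL-1β and 1247.5 with vehicle. It was lower with iloprost, by log2 ratios of -1.44 against indomethacin and -1.29 against both IL-1β and vehicle. Plat, the tissue plasminogen activator gene, had signals of 1160.7 with iloprost, 1622.9 with indomethacin, 1605.7 with IL-1β and 908.2 with vehicle, and did not pass 2-fold. The median log2 ratio of the 6 was 0.31 with IL-1β against vehicle, -0.02 with indomethacin against IL-1β, -0.24 with iloprost against indomethacin, -0.29 with iloprost against IL-1β, 0.13 with indomethacin against vehicle and 0.18 with iloprost against vehicle. The medians of all genes measured lay between -0.02 and 0.03. With no floor, the median takes in all 23 genes with a probe set. It was then -0.0034 for iloprost against indomethacin and -0.19 for IL-1β against vehicle. Genes that respond to retinoic acid thus differed in direction. Of the 23, 2 passed 2-fold in a comparison, where 4.77% of all 12393 genes did so in any of them.

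The coregulators of these receptors showed no 2-fold difference. Of 11 genes with a probe set, 8 were above the floor on every array. Of the 11, 0 passed 2-fold in any comparison, where 4.77% of all 12393 genes did so. Hdac3, a deacetylase of the NCoR corepressor complex, had signals from 144.4 to 187.8, Tbl1x, another subunit of that complex, from 143.0 to 191.7, and Med1, a Mediator subunit that binds nuclear receptors, from 158.7 to 176.1.

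Promoter sequences are shown for the 3 receptor genes that shared the sides of Rdh10, and for Rarg, the member that differed in another arrangement. Windows run from 250 bases before to 50 bases after a RefSeq start in GRCm38.p6, and 7 of the 9 members were matched, Rdh10 and Crabp2 not among them. Searched on both strands were TGACG, the half-site of the cAMP response element, the AP-1 site TGANTCA, the nuclear receptor half-site AGGTCA, the TATA box TATAAA and the NF-kB consensus. Capitals mark TGACG, which reads CGTCA on the other strand. It is marked because iloprost acts through a receptor that raises cAMP.
Nr4a1, chr15:101266596-101266895, plus strand: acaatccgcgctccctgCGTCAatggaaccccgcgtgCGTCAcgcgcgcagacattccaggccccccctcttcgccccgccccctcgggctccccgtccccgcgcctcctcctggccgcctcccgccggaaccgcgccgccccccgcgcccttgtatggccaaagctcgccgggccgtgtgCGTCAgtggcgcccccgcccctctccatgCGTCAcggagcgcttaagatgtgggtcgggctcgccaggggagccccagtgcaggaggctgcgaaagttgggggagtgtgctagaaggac
Nr4a2, chr2:57123954-57124253, minus strand: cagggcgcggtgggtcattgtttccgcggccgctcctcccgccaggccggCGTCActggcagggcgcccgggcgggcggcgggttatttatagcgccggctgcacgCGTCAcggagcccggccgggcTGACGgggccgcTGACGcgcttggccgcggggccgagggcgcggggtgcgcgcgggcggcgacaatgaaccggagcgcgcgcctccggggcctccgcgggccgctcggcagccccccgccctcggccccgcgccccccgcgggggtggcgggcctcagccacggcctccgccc
Vdr, chr15:97908247-97908546, minus strand: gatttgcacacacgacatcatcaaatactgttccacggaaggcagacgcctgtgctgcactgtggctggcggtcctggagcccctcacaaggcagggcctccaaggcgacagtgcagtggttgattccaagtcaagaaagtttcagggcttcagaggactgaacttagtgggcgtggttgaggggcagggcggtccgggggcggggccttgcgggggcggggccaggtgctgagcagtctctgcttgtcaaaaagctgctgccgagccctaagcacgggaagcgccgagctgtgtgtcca
Rarg, chr15:102257473-102257772, minus strand: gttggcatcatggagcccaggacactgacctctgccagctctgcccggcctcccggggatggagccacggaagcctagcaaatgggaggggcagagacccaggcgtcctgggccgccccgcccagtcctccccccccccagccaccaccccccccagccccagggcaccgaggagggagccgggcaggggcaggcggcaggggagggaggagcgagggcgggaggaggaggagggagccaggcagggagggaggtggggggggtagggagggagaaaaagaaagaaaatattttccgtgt

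The Nr4a1 window holds 4 half-sites and the Nr4a2 window 4, while the Vdr window and both Rarg windows hold 0. Of 32851 promoter windows of the same length, 20.8% hold at least 1 and 1.03% hold 3 or more. These windows were not matched for base content, so the shares are not those of windows equally rich in G and C. G and C made up 72.3% of the Nr4a1 window, 81.7% of the Nr4a2 window and 61.3% of the Vdr window. In the Rarg windows they made up 70% and 51.7%. Of the 13 windows of the 7 matched members, 2 hold the half-site, both at alternative starts of Rara, which was below the floor. The nuclear receptor half-site was found in 3 of these 13 windows, those of Rarg, Rxra and Rara with 1, 2 and 1 matches, and in 16.3% of all windows. No match of the cAMP half-site overlapped one of the nuclear receptor half-site. The NF-kB consensus was found in 3 of the 4 Rara windows and across the start of Nr4a1, and in 8.46% of all windows. Of these Rara windows, 2 overlap and hold the same matches. The AP-1 site was found in 1 Aldh1a1 window and in 7.81% of all windows, and the TATA box in the Nr4a2 window and in 13.6% of all windows. A match describes letters in a window and not a bound site, and windows without one say nothing of sites farther away.

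Genes with a profile like that of a member were found by the distance between log2 signals over the 4 arrays, each relative to the median gene and centred on the gene's own mean. The search was made among genes above the floor on every array, for the members with a range of at least 1 on that scale, which were Rdh10 and Rarg. The 5 genes nearest to Rdh10 were Medag at a distance of 0.14, Pkdcc at 0.34, Dio2 at 0.46, Ackr3 at 0.49 and Nfil3 at 0.52. Medag, a gene named for its role in fat cell formation, had signals of 580.4 with iloprost, 138.2 with indomethacin, 542.2 with IL-1β and 148.5 with vehicle. Dio2, the deiodinase that activates thyroid hormone, had signals of 184.8 with iloprost, 46.1 with indomethacin, 127.1 with IL-1β and 43.7 with vehicle. Ackr3, an atypical receptor that takes up the chemokine CXCL12, had signals of 685.5 with iloprost, 215.9 with indomethacin, 609.6 with IL-1β and 192.6 with vehicle. Pkdcc encodes a secreted tyrosine kinase and Nfil3 a transcriptional repressor.

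The 5 genes nearest to Rarg were Gas1 at a distance of 0.17, Klf4 at 0.23, Zfp521 at 0.24, Fen1 at 0.26 and Nrde2 at 0.30. Gas1, a growth arrest gene and Hedgehog co-receptor, had signals of 1986.3 with iloprost, 1113.0 with indomethacin, 1121.3 with IL-1β and 1849.8 with vehicle. Klf4, a zinc finger transcription factor, had signals of 190.8 with iloprost, 101.4 with indomethacin, 109.0 with IL-1β and 160.3 with vehicle. In both genes the iloprost and vehicle dishes were above the other pair, as in the brighter probe set of Rarg. A likeness over 4 arrays is a description and says nothing of shared control.

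**Figure D5:**
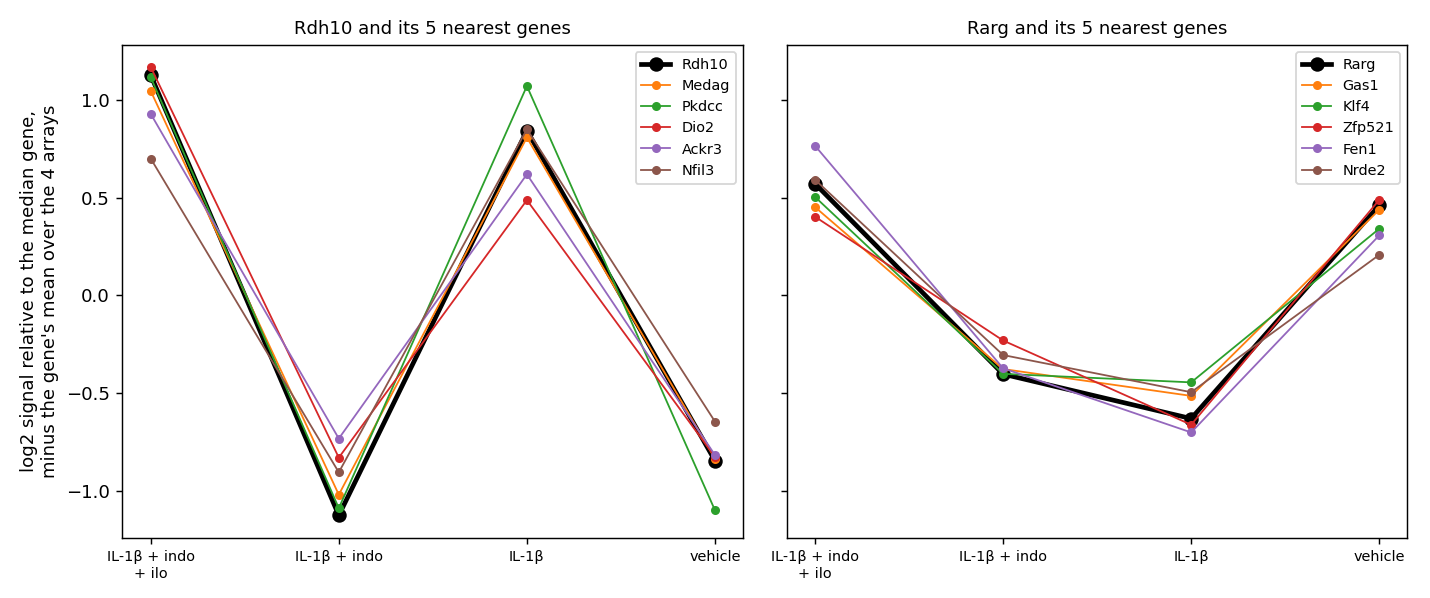
Log2 signals relative to the median gene, minus each gene's mean over the 4 arrays (vertical axis), by treatment, for Rdh10 (left) and Rarg (right) in black and their 5 nearest genes in colour; each point is 1 array, and the lines only join the points of a gene. Rdh10 and its neighbours are high in the iloprost and IL-1β dishes, and Rarg and its neighbours in the iloprost and vehicle dishes.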

How the data were processed

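RNA of 4 dishes was hybridised to 4 one-colour Affymetrix arrays, per the labels. The authors deposited one linear intensity for each probe set on each array. How they summarised, background-corrected and scaled it is not given in the sources used here. Probe sets were named through the platform annotation, which can be old. Of 22690 probe sets, 1606 are unnamed here, 691 name several genes, 64 are controls, and 20380 were used. All 9 member symbols matched RefSeq by gene number.

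Signals under 37.6 (50th percentile of all values) were raised to that floor before log2. Each gene was represented by the probe set of highest mean log2 signal. Ratios had the median over 6227 genes, those never under the floor, subtracted, and were called at 2-fold. With 1 array at the floor a ratio is a bound, and a bound that crosses 0 has no direction. Calls were tested on simulated data, which hold no information on the spread between dishes of one treatment. Python 3.11.15, numpy 2.4.6 and pandas 2.3.3 were used.

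Members and lists were chosen with earlier results of these data known. Named genes are all members, list genes past 2-fold or among the 3 brightest of a list, and the 5 nearest profiles. Dhrs3, Aldh1a3 and Cyp26a1, which this rule does not take, were chosen after their values were seen. The number of arrays limits the precision.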

Additional observations from a re-analysis of the deposited data

How the results depend on the processing

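Counts of members were recomputed under 8 settings chosen with the design and 1 added after the data were seen, in which the arrays were scaled before the floor was set. Ratios of members and of 8 list genes were recomputed under the 7 or 8 of these that give a ratio, the fold threshold not being one. Of 108 recomputed counts of members 94 stayed within 1.5 times the main count, and 0 of these ratios past 2-fold changed sign. Many of the 94 were counts of 0 that stayed 0. With the floor at the 35th percentile, 2 members were higher with IL-1β against vehicle, 2 lower with indomethacin against IL-1β and 1 lower with iloprost against IL-1β, and the member medians were 0.39 with IL-1β against vehicle and 0.29 with iloprost against indomethacin. Aldh1a1 is also among the members measured at that floor. With the floor at the 65th percentile, 0 were lower with IL-1β against vehicle, 1 was higher with iloprost against indomethacin, 0 with iloprost against IL-1β and 1 with iloprost against vehicle. There the medians were 1.66 (IL-1β against vehicle), -0.91 (indomethacin against IL-1β), 1.04 (iloprost against indomethacin), 0.12 (iloprost against IL-1β) and 1.05 (iloprost against vehicle), with fewer members measured. As deposited, 0 members were lower with IL-1β against vehicle and the median was 0.33. With no floor and log2(signal + 32), and with the mean over probe sets, 0 were lower with IL-1β against vehicle and 1 was higher with iloprost against IL-1β, and the medians with iloprost against indomethacin were 0.028 and 0.41. With no floor the median is over all 9 members. Centred on the added control transcripts, and at a fold threshold of 1.5, 1 member was lower with indomethacin against vehicle. No paired analysis was possible because each treatment has 1 array. Signal over background limits 5 of the 9 members, which were below the floor on some or all arrays.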
